A study of Mus musculus with 10 samples.

Results

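Heat shock proteins are molecular chaperones, and 10 mouse genes that encode them are described here across trophoblast stem cell cultures. They are Cryab, Hspb1, Hspa1a, Hspa1b, Hspa5, Hspa8, Hsp90aa1, Hsp90ab1, Dnajb1 and Hsph1. They were chosen by gene symbol, with earlier results of these data known. All 10 were present among the 28214 gene names of the deposited tables. Transcripts were counted by CEL-Seq2, a 3′-end method with a unique molecular identifier (UMI) per captured transcript, in 4 single-cell plates and 6 bulk libraries of the C57BL/6J background.

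The single-cell plates held differentiated trophoblast stem cells (TSCs), pTSCs taken from blastoids, pTSCs and TSCs, with 1 library each. All of them carried a GFP cassette integrated at random. The TSCs, a line labelled F4, were kept in Tx medium, and the differentiated TSCs, also labelled F4, had spent 6 days without Fgf4, Tgfb and heparin. The newly derived pTSCs were grown in Lt21 medium, and the blastoid cells came from blastoids, embryo-like structures built in culture from stem cells, made with the pTS1 line of pTSCs. The labels do not say whether the pTSC library was also pTS1, so line and passage through a blastoid cannot be told apart in that pair. The bulk libraries were 3 of CDX2-high and 3 of CDX2-low TSCs, from cells with eGFP knocked in at the CDX2 coding sequence. CDX2 is a transcription factor that maintains trophoblast stem cells. The labels do not say that the bulk replicates came from separate cultures, so their p-values measure the spread between these libraries, which may be technical.

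A well was kept if it had 2000 or more UMIs from genes not on the mitochondrial chromosome, which left 318 differentiated TSC wells, 257 blastoid pTSC wells, 299 pTSC wells and 318 TSC wells of 384 each. Summed totals were 3254559 UMIs in differentiated TSCs, 2315931 in blastoid pTSCs, 2437481 in pTSCs and 5388767 in TSCs, and bulk totals ran between 116659 and 272030 counts. Every plate uses the same well barcode numbers, so shared numbers do not mean shared cells. The differentiated library went against being the same line as the TSC library. It held 226 UMIs of 5 Y-linked genes and 37 of the imprinted RNA H19, against 0 and 33921 in the TSC library. Differentiation and line cannot be told apart between these libraries. The pTSC library, set beside the differentiated one as well, differed from it in the same way (1 UMI of the Y-linked genes and 15859 of H19), so that pair carries the same limit. The trophoblast stem cell markers were found in all 4 libraries (11 of 11 with a UMI in each). Their summed level was 6126 CPM (UMIs per 1000000 non-mitochondrial UMIs) in differentiated TSCs, 8678 in blastoid pTSCs, 7462 in pTSCs and 6119 in TSCs. The near-equal sums of differentiated TSCs and TSCs hide opposite differences. In differentiated TSCs 7 of the 11 markers were at least 2-fold lower and 1 higher, with a median log2 ratio of -1.35. Cdx2 was at 2.46 against 49.9 CPM and Id2 at 592 against 2653 CPM, while the keratin Krt8 was at 2224 against 350 CPM. Summed markers of differentiated trophoblast were at 1781 CPM in differentiated TSCs, 395 in blastoid pTSCs, 50.5 in pTSCs and 244 in TSCs, with Prl2c2 and Synb at 0 in all 4.

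Cells meet unfolded proteins with chaperones of several families. Small heat shock proteins hold misfolded proteins in solution without using ATP, HSP70 proteins bind and release them in ATP-driven cycles set by J-domain partners and exchange factors, and HSP90 proteins finish the folding of kinases and receptors. Heat shock factor HSF1 binds repeats of nGAAn in the promoters of inducible members, whereas the endoplasmic reticulum (ER) has its own HSP70, induced by the unfolded protein response through ER stress elements.

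The promoters of the inducible members are shown because these 2 kinds of element can be read in them. RefSeq promoter entries (build GRCm38.p6) matched 6 of the 10 members, in 8 entries, and each printed sequence is the 150 bases before the start of the transcript. Capitals mark a match to GAANNTTC or TTCNNGAA, inverted repeats of the heat shock element core that read the same on either strand, or to the ER stress element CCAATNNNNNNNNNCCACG, searched on both strands. The sequences lie at chr17:34972157-34972306 for Hspa1a and chr17:34959239-34959388 for Hspa1b (minus strand), chr5:135887769-135887918 for Hspb1 (plus), chr5:149636337-149636486 for Hsph1 (minus) and chr2:34771940-34772089 for Hspa5 (plus).
Hspa1a: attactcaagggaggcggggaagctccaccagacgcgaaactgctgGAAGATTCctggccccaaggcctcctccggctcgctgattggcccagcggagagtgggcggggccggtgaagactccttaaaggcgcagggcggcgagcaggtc
Hspa1b: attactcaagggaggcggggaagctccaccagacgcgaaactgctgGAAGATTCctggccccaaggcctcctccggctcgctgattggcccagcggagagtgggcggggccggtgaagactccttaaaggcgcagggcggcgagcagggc
Hspb1: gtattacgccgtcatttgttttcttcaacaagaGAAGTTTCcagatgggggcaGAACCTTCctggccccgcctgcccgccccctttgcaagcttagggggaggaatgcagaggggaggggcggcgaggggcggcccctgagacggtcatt
Hsph1: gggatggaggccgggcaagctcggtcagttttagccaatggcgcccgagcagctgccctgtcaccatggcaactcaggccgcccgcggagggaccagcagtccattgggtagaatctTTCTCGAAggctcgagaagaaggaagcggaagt
Hspa5: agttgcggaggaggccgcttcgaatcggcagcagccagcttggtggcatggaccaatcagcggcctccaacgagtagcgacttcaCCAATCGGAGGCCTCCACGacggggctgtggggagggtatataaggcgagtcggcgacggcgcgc

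An 8-letter core was present in 4 of the 6 members, Hspa1a, Hspa1b, Hspb1 and Hsph1. It was present in 7.73% of all 32851 promoters of that length, and the 13-letter form with a further repeat (GAANNTTCNNGAA, which contains both 8-letter cores) was present in 0.268% of them and in 0 of the 8 entries of the members. The match began 104 bases before the start in Hspa1a and in Hspa1b, whose promoters were identical at 149 of 150 bases. Hspb1 held 2 matches, 117 and 97 bases before the start. The Hsph1 match began 33 bases before the start of the printed entry, and the other Hsph1 entry held the same letters. Hspa5 held the ER stress element 65 bases before its start, a motif found in 0.0822% of promoters. The Dnajb1 entries held none of these letters in this window. A match describes letters and shows no binding.

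Of the small heat shock genes, Cryab differed more between libraries than Hspb1. It encodes alpha B-crystallin, a small heat shock protein of lens and muscle that forms large oligomers. It reached 504 CPM in differentiated TSCs (1641 UMIs, exact 95% Poisson interval 480 to 529). Cryab was at 19.9 CPM in blastoid pTSCs (46 UMIs, 14.5 to 26.5), 11.5 in pTSCs (28 UMIs, 7.63 to 16.6) and 47.7 in TSCs (257 UMIs, 42.04 to 53.9). The order was therefore differentiated TSC, TSC, blastoid pTSC and pTSC, and only the intervals of the blastoid and plain pTSC libraries overlapped. These intervals, and all others given for single-cell values, cover counting error only, since each group is 1 library and no test of a condition can be made.

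Hspb1 encodes HSP27, a small heat shock protein that also binds actin. It was at 161 CPM in differentiated TSCs (523 UMIs, 147 to 175), 57.0 in blastoid pTSCs (132 UMIs, 47.7 to 67.6), 67.3 in pTSCs (164 UMIs, 57.4 to 78.4) and 59.6 in TSCs (321 UMIs, 53.2 to 66.5). The differentiated library was the high one, and the intervals of the other 3 overlapped.

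Hspa1b and Hspa1a encode the same kind of stress-inducible cytosolic HSP70 from neighbouring genes on chromosome 17. Hspa1b was at 194 CPM in differentiated TSCs (633 UMIs, 180 to 210), 68.2 in blastoid pTSCs (158 UMIs, 58.0 to 79.7), 28.7 in pTSCs (70 UMIs, 22.4 to 36.3) and 50.7 in TSCs (273 UMIs, 44.8 to 57.0). Its 4 intervals did not overlap, with differentiated TSCs highest and pTSCs lowest. Hspa1a had far fewer UMIs. It was at 14.4 CPM in differentiated TSCs (47 UMIs, 10.6 to 19.2), 14.2 in blastoid pTSCs (33 UMIs, 9.81 to 20.01), 8.62 in pTSCs (21 UMIs, 5.33 to 13.2) and 5.94 in TSCs (32 UMIs, 4.06 to 8.38). The intervals of both upper libraries lay above that of TSCs, and the pTSC interval overlapped all 3 others. In the GENCODE M21 transcripts, 58.8% of the 50-base windows of Hspa1a also occurred in Hspa1b, but 0% of those in its last 500 bases did. The split of reads between the pair is uncertain wherever reads lay farther from the 3′ end.

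Dnajb1 and Hsph1 are co-chaperones. Dnajb1 encodes HSP40, the J-domain partner that delivers clients to HSP70. It was at 280 CPM in differentiated TSCs (911 UMIs, 262 to 299), 147 in blastoid pTSCs (340 UMIs, 132 to 163), 111 in pTSCs (271 UMIs, 98.3 to 125) and 172 in TSCs (929 UMIs, 161 to 184). The differentiated library lay above the rest and pTSCs below, and the intervals of TSCs and blastoid pTSCs just overlapped. Hsph1, which encodes HSP105, an HSP110-type exchange factor for HSP70, was at 4.30 CPM in differentiated TSCs (14 UMIs), 12.1 in blastoid pTSCs (28 UMIs), 13.1 in pTSCs (32 UMIs) and 9.46 in TSCs (51 UMIs).

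Hsp90ab1, the constitutive cytosolic HSP90, was lowest where Cryab was highest. It was at 4013 CPM in differentiated TSCs (13062 UMIs, 3945 to 4083), 7280 in blastoid pTSCs (16861 UMIs, 7171 to 7391), 6865 in pTSCs (16733 UMIs, 6761 to 6970) and 6154 in TSCs (33160 UMIs, 6087 to 6220). No interval overlapped another, with differentiated TSCs lowest and blastoid pTSCs highest. The inducible Hsp90aa1 ranged between 13.4 CPM in blastoid pTSCs (31 UMIs) and 25.2 in TSCs (136 UMIs), with 22.7 in differentiated TSCs and 20.5 in pTSCs. Hspa8, the constitutive cytosolic HSP70 that also uncoats clathrin vesicles, was at 13.2 CPM in differentiated TSCs (43 UMIs), 3.02 in blastoid pTSCs (7 UMIs), 16 in pTSCs (39 UMIs) and 10.8 in TSCs (58 UMIs). Hspa5, which encodes BiP, the HSP70 of the ER, was at 5.53 CPM in differentiated TSCs (18 UMIs), 3.45 in blastoid pTSCs (8 UMIs), 8.21 in pTSCs (20 UMIs) and 13.2 in TSCs (71 UMIs).

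**Figure D1:**
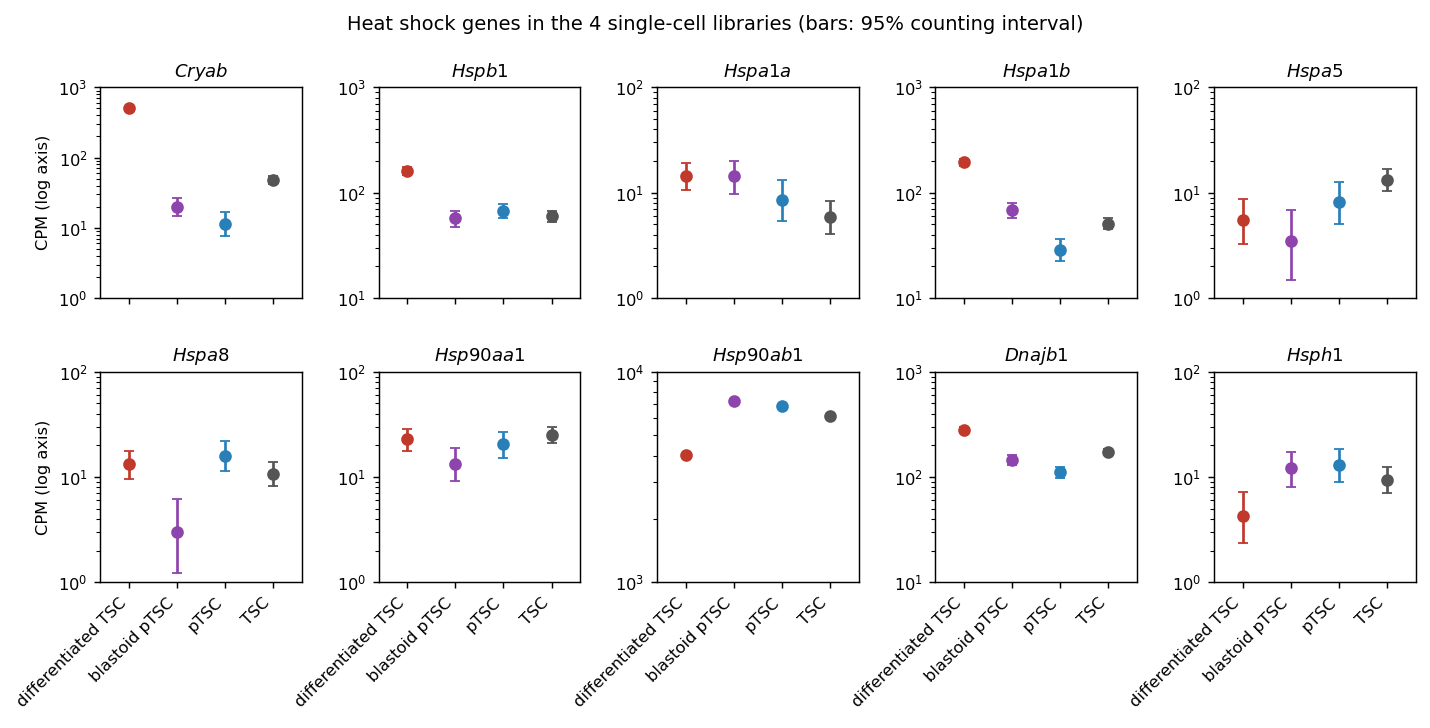
Level of each of the 10 heat shock genes in the 4 single-cell libraries, in CPM of the summed wells on log axes, with the exact 95% Poisson interval of the count as the bar (1 library per point). Cryab is at 504 CPM in differentiated TSCs against 47.7 CPM in TSCs, while Hsp90ab1 is at 4013 CPM against 6154 CPM.

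Levels cannot be ranked between genes in these plates. In the bulk TSC libraries, which used the same library method, Hspa8 had a median of 5169 CPM over the 6 libraries, against 10.8 CPM in the TSC plate. Hsp90aa1 had 1868 CPM in bulk and 25.2 CPM in the plate, and Hspa5 271 CPM in bulk and 13.2 CPM in the plate. Hsp90ab1 (4616 CPM in bulk, 6154 CPM in the plate) and Dnajb1 (150 CPM in bulk, 172 CPM in the plate) lay close together. Hspb1 had 458 CPM in bulk and 59.6 CPM in the plate, and Hsph1 120 CPM in bulk and 9.46 CPM in the plate. Cryab had a bulk median of 6.88 CPM and 47.7 CPM in the plate, and Hspa1b 7.49 CPM in bulk and 50.7 CPM in the plate. Both were therefore higher in the plate, as was Hspa1a by a smaller margin. The bulk values of Cryab, Hspa1a and Hspa1b rest on only 7, 7 and 9 counts over the 6 libraries. GENCODE M21 lists 11 transcripts for Hsph1, 10 for Hspa8, 8 each for Hsp90aa1 and Hsp90ab1 and 6 each for Hspa5 and Cryab. It lists 2 each for Hspb1 and Dnajb1 and 1 each for Hspa1a and Hspa1b. The part of transcript number in these gaps between bulk and plate was not tested.

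Differentiated TSCs, taken after 6 days without the growth factors, were compared with TSCs. Differentiation and line cannot be told apart in this pair. Of the 10 members, 4 were at least 2-fold higher in differentiated TSCs, as were 17.5% of the 12158 genes with at least 10 UMIs over both libraries. These were Cryab (10.6-fold, 95% counting interval 9.26 to 12.1), Hspa1b (3.84-fold, 3.33 to 4.44), Hspb1 (2.70-fold, 2.34 to 3.11) and Hspa1a (2.43-fold, 1.52 to 3.94). At least 2-fold lower were 2 of 10, beside 18.0% of all genes. They were Hspa5 (2.38-fold lower, 1.40 to 4.25) and Hsph1 (2.20-fold lower, 1.20 to 4.30), with 18 and 14 UMIs in the differentiated library. Hspa5, Hsph1 and Hspb1 were also far lower in the TSC plate than in bulk. Cryab, Hspa1b and Hspa1a were higher in the plate, beside few bulk counts. The part of these gaps in the ratios was not tested. The other 4 stayed within 2-fold. Among them Dnajb1 was 1.62-fold higher (1.48 to 1.78) and Hsp90ab1 1.53-fold lower. The median log2 ratio was 0.50 over the members and 0.05 over all genes. Trimmed-mean scaling of the libraries lowered every log2 ratio of this pair by 0.17 and left those 4 and 2 calls as they were.

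Set against the pTSC library instead, the differentiated library was higher by 43.9-fold for Cryab, 6.77-fold for Hspa1b, 2.39-fold for Hspb1 and 2.52-fold for Dnajb1, and it was 3.05-fold lower for Hsph1. Hspa1a did not reach 2-fold there (log2 ratio 0.75), nor among the lower-numbered well barcodes against TSCs (0.88). Among the 7894 genes with at least 50 UMIs over the differentiated and TSC libraries, Cryab had the 49th highest ratio and Hspa1b the 243rd. Differentiated TSC wells also had more mitochondrial UMIs (22.9% of all, against 13.8% in TSC wells) and a lower median of 8473 UMIs per well outside mitochondrial genes, against 15091 in TSC wells. The part of these differences in the ratios was not tested.

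**Figure D2:**
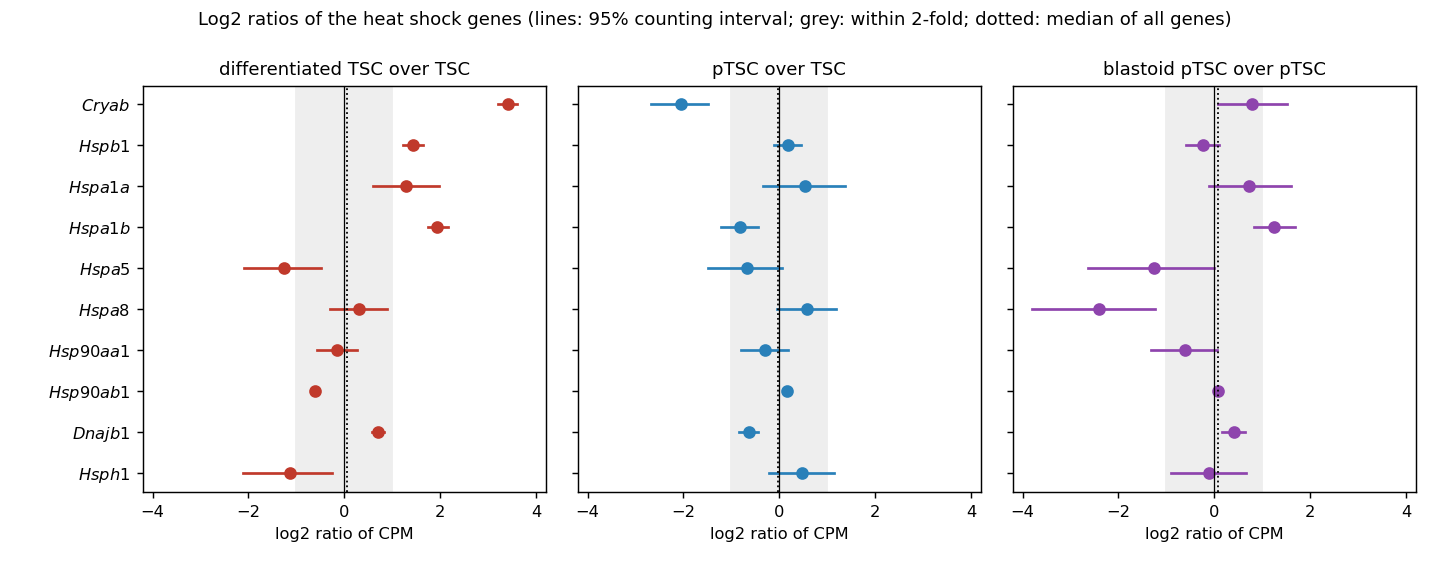
Log2 ratio of CPM of each heat shock gene in the 3 comparisons of single-cell libraries, with the 95% counting interval as the line, the band within 2-fold in grey and the median of all genes dotted. In differentiated TSCs over TSCs, 4 members lie to the right of the band and 2 to the left, while pTSC over TSC has only Cryab outside it, to the left.

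pTSCs were compared with TSCs to set the Lt21 line beside the Tx line. Line and medium differ together in this pair and cannot be told apart. None of the 10 members (0) was at least 2-fold higher in pTSCs, beside 17.6% of the 12070 genes measured, and 1 of 10 was at least 2-fold lower, beside 13.9%. That gene was Cryab, 4.15-fold lower in pTSCs (2.81 to 6.37). Hspa1b was 1.76-fold lower (1.35 to 2.33) and Dnajb1 1.55-fold lower (1.35 to 1.78). The intervals of Hspb1, Hspa1a, Hspa5, Hspa8, Hsp90aa1 and Hsph1 included equal levels. The members' median log2 ratio of -0.07 was close to the -0.04 of all genes. As for the markers, differentiated trophoblast genes were also lower in the pTSC library (5 of 6 measured, 50.5 against 244 CPM summed). Their part in the Cryab difference was not tested.

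pTSCs from blastoids were compared with pTSCs grown in the dish. Hspa1b was 2.38-fold higher in blastoid pTSCs (1.78 to 3.19), the only member of 10 at least 2-fold higher, beside 13.4% of the 11343 genes measured. At least 2-fold lower were 2 of 10, beside 9.42% of genes. Hspa8 was 5.29-fold lower with 7 UMIs in the blastoid library, and Hspa5 was 2.38-fold lower with 8. Both rest on few molecules, and the interval of Hspa5 began near equal levels (1.002 to 6.23). Both genes were also far lower in the TSC plate than in bulk, and Hspa1b was higher in the plate, beside few bulk counts. The part of these gaps in their ratios was not tested. Dnajb1 was 1.32-fold higher (1.12 to 1.55) and Cryab 1.73-fold higher (1.06 to 2.87). The members' median log2 ratio was -0.02 and that of all genes 0.07. Trimmed-mean scaling lowered the log2 ratios of this pair by 0.10. Without the 5% of wells highest in it, the log2 ratio of Hspa1b was 0.98, against 1.25 with all wells. Cell type markers also differed between these libraries. Of 8 measured epiblast and embryonic stem cell markers, 4 were at least 2-fold higher in blastoid pTSCs and 2 lower, with Tdgf1 at 63 against 0 UMIs, Dppa5a at 62 against 5 UMIs and Nanog at 0 in both, and the list summed to 719 CPM in blastoid pTSCs and 1155 CPM in pTSCs. Of 3 measured markers of differentiated trophoblast 2 were higher, Serpinb9e (162 against 0 UMIs) and Nrk (6.86-fold). Their part in the Hspa1b difference was not tested.

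Cells of a library differed widely in Cryab. To compare shares of wells at equal depth, each well was thinned to 2000 UMIs. A Cryab UMI was then found in 29.6% of differentiated TSC wells (exact binomial interval 24.6 to 34.9), 2.72% of blastoid pTSC wells, 2.01% of pTSC wells and 6.29% of TSC wells. Unthinned shares were 59.1% in differentiated TSCs, 11.7% in blastoid pTSCs, 5.69% in pTSCs and 31.4% in TSCs. A single differentiated TSC well held 375 of the 1641 Cryab UMIs, at 15968 CPM, and the 10% of wells highest in it held 72.3% of them. The median differentiated well was at 108 CPM. With the 5% of wells highest in Cryab left out of each library, the log2 ratio of differentiated TSCs over TSCs was 2.88, against 3.40 with all wells. Lower-numbered well barcodes of the differentiated plate summed to 373 CPM and higher-numbered ones to 608 CPM, while the matching TSC sums were both 47.7 CPM.

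UMIs of Hspb1, Hspa1b and Dnajb1 were less concentrated in the highest wells than those of Cryab. In differentiated TSCs the highest 10% of wells held 48.9% of Hspb1 UMIs, 51.2% of Hspa1b UMIs and 36.1% of Dnajb1 UMIs. After thinning, Hspa1b was found in 24.8% of differentiated TSC wells, 12.1% of blastoid pTSC wells, 4.35% of pTSC wells and 7.23% of TSC wells. Hspb1 was found in 25.2% of differentiated TSC wells, 10.5% of blastoid pTSC wells, 11.7% of pTSC wells and 7.55% of TSC wells. Dnajb1 was found in 38.4% of differentiated TSC wells, 26.1% of blastoid pTSC wells, 16.4% of pTSC wells and 27.4% of TSC wells. Hsp90ab1 was found in at least 99.1% of wells of every library. The other 5 members were each found in under 6% of thinned wells in every library, so their shares carry little information. No cell type in these plates is known to lack these genes, so a background share from free RNA was not measured.

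**Figure D3:**
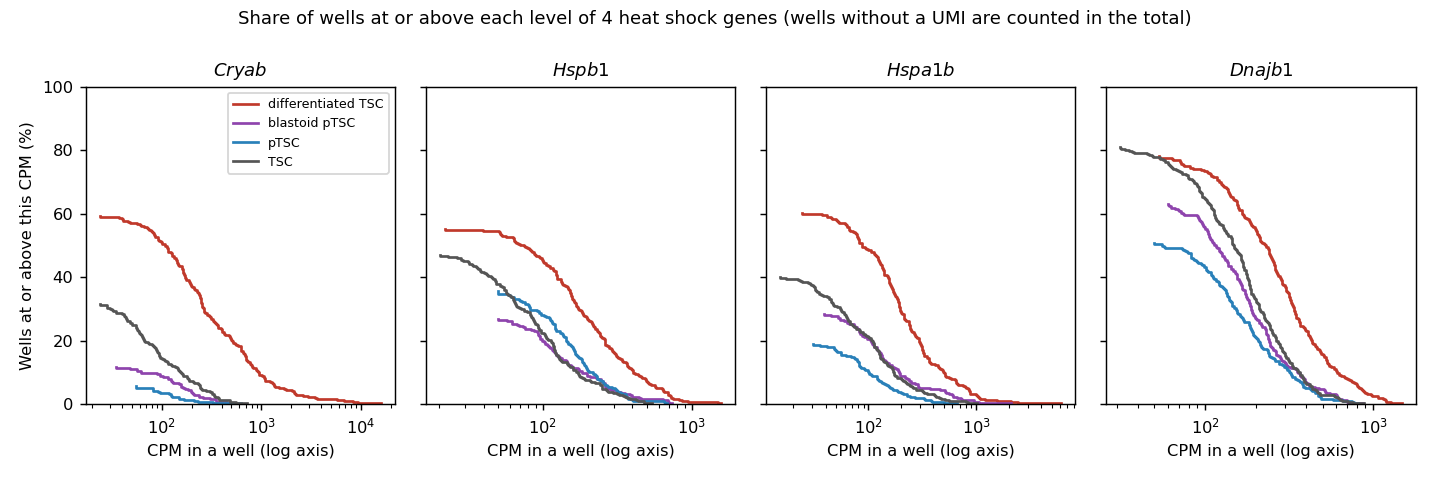
Share of all kept wells (vertical axis, percent) at or above each CPM (horizontal log axis, unthinned) for Cryab, Hspb1, Hspa1b and Dnajb1, with 1 line per single-cell library. The differentiated TSC line for Cryab reaches 15968 CPM, and each curve starts at the share of wells with any UMI, 59.1% for Cryab in differentiated TSCs and 31.4% in TSCs.

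Across the wells of a library the members varied together only weakly. Correlations are Pearson's r on log-scaled counts over members with a UMI in at least 10% of wells, given as descriptions, since wells share a library and differ in depth. The highest was Hspb1 with Hspa1b in blastoid pTSCs (r = 0.40 over 257 wells, 0.32 after thinning), and the same pair had 0.29 in differentiated TSCs (318 wells, 0.14 after thinning). Hspa1a with Hspa1b had 0.26 in differentiated TSCs and 0.06 after thinning. Cryab with Hspb1 had 0.09 and Cryab with Hspa1b 0.20 in that library. In all, 4 of 28 pairs reached 0.2 in differentiated TSCs, 1 of 15 in blastoid pTSCs, 0 of 21 in pTSCs and 1 of 36 in TSCs, and after thinning 0 did in differentiated TSCs.

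The genes most like Cryab over the 318 differentiated TSC wells included Col4a2 (r = 0.41) and Col4a1 (0.41), the basement membrane collagen IV chains, Utrn (0.40), the dystrophin relative utrophin, and Pdgfb (0.39), a growth factor. After thinning these 4 lay between 0.23 and 0.31. In TSC wells the genes most like Cryab were 1600014K23Rik (0.40), Tns4 (0.38), Vdr (0.33), Cnn2 (0.32) and Acadl (0.30), and in blastoid pTSC wells they included Plxnb1 (0.28), Vnn1 (0.28), Bag4 (0.26) and Mvp (0.25). After thinning those of TSC wells lay between 0.09 and 0.27, and of those of blastoid wells Vnn1 had 0.26 and the other 3 lay between -0.02 and 0.10. Those most like Hspa1b in differentiated TSCs were Hspb1 (0.29), Micall1 (0.28), Pced1b (0.28), Map7 (0.27) and the small heat shock gene Hspb8 (0.27), between 0.12 and 0.16 after thinning. In blastoid pTSCs they were Tceanc (0.43), Hspb1 (0.40), Efnb1 (0.36), Rassf4 (0.36) and Nrk (0.35), which after thinning lay between 0.03 (Rassf4) and 0.32 (Hspb1). In TSC wells 1600014K23Rik (0.41), 3830417A13Rik (0.35), Cxx1b (0.33), Hexim1 (0.31) and Abca1 (0.30) led for Hspa1b, but after thinning these 5 lay between -0.06 and 0.07. In pTSC wells they were Slc10a7 (0.25), Tnrc6a (0.24), Smcr8 (0.23), Itm2c (0.23) and Tmem43 (0.23), between 0.01 and 0.15 after thinning.

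With single markers the correlations of Cryab and Hspa1b were also weak. They were computed without thinning only, so the part of depth in them was not tested. With the stem cell factor Eomes, Cryab had r = -0.22 in differentiated TSC wells and -0.25 in TSC wells, and Hspa1b had -0.23 in differentiated TSC wells and -0.25 in TSC wells. With the keratin Krt8 the values were positive, at 0.24 for both Cryab and Hspa1b in differentiated TSC wells and at 0.28 for both in TSC wells. Markers of differentiated trophoblast did not follow one direction. In differentiated TSC wells Serpinb9e had -0.25 with Cryab and -0.05 with Hspa1b, and Nrk had -0.07 with Cryab and 0.20 with Hspa1b. In TSC wells Nrk had 0.01 with Cryab and 0.30 with Hspa1b. With Vnn1, a pantetheinase gene, Cryab had 0.16 in differentiated TSC wells, 0.28 in blastoid pTSC wells and 0.30 in TSC wells. In pTSC wells, Hspa1b had 0.11 with Eomes and 0.06 with Krt8.

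The wider chaperone network was read in 8 lists, whose counts stand beside 17.5% of all measured genes higher and 18.0% lower in differentiated TSCs against TSCs. In differentiated TSCs against TSCs, the other cytosolic chaperones and co-chaperones had 4 of 24 measured genes at least 2-fold higher and 2 lower, with a median log2 ratio of 0.19, shares no larger than those of all genes. The higher ones included Bag3, the exchange factor that joins HSP70 to small heat shock proteins (251 against 93.2 CPM, 2.70-fold), the J-domain gene Dnaja1 (98.6 against 39.5 CPM, 2.495-fold) and Hspa2 (29.2 against 12.6 CPM, 2.31-fold). Of the factors themselves, Hsf1 was at 124 CPM in differentiated TSCs and 101 CPM in TSCs. Hsbp1, a binding partner that dampens HSF1, was 3.35-fold lower in differentiated TSCs (247 against 828 CPM), the 1 of 3 measured factors past 2-fold.

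The chaperonin and prefoldin list, whose complexes fold actin and tubulin, had 1 of 14 higher and 4 lower with a median of -0.53. Pfdn6 was 5.03-fold lower, Cct5 3.80-fold lower and Cct8 3.06-fold lower, and Pfdn4 was 2.19-fold higher. None (0) of the 9 mitochondrial chaperones and proteases passed 2-fold in either direction. The ER list was split, with 6 of 24 higher and 6 lower. Xbp1, the transcription factor of the unfolded protein response, was 3.13-fold higher, whereas Manf was 7.35-fold, Sdf2l1 3.14-fold and Sec61b 3.10-fold lower. In the integrated stress response list, with 1 of 7 higher and 1 lower, Chac1, which degrades glutathione, was 16.4-fold lower (9.53 against 156 CPM).

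Targets of the oxidative stress factor NRF2 had 5 of 10 higher and 0 lower, with a median of 1.01. Nqo1 was 3.18-fold higher, Hmox1, heme oxygenase 1, 2.65-fold, Gclc 2.51-fold and Nfe2l2, the gene of NRF2 itself, 2.17-fold. Immediate early genes, which also respond to cell handling and sorting, had 5 of 11 higher and 1 lower with a median of 0.81. Btg2 was 4.48-fold, Jun 3.55-fold, Klf6 3.08-fold and Fosb 2.43-fold higher, while Egr1 was at 0 in differentiated TSCs and 2.97 CPM in TSCs. Their summed level was 6456 CPM in differentiated TSCs and 2657 CPM in TSCs, and its part in the Hspa1b and Hspb1 differences was not tested. Fibroblast markers, which feeder cells would bring, summed to 23.0 CPM in differentiated TSCs, 15.1 in blastoid pTSCs, 45.1 in pTSCs and 10.4 in TSCs. Dcn was at 0 in all 4. Single genes made up much of the higher sums. In pTSCs Thy1 was at 37.3 CPM and Twist2 at 4.92 CPM. Col1a2, Col3a1, Postn and Lum were at 0 there, and Col1a1 was at 2.46 CPM against 4.45 CPM in TSCs. In differentiated TSCs Twist2 was at 10.8 CPM and Col1a1 at 5.84 CPM.

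In blastoid pTSCs against pTSCs, where 13.4% of all genes were higher and 9.42% lower, the other cytosolic chaperones had 2 of 23 higher and 1 lower (median -0.01). These were Dnajb4 (18.6 against 4.10 CPM, 4.53-fold) and Hspb8, the small heat shock partner of Bag3 (310 against 93.9 CPM, 3.30-fold), while Bag3 itself was at 46.2 CPM in blastoid pTSCs and 54.6 CPM in pTSCs. Of the immediate early genes 7 of 11 were lower and 1 higher, with a median of -1.15, while the list summed to 2692 CPM in blastoid pTSCs and 2699 CPM in pTSCs. Ier3 was 4.80-fold, Fos 3.83-fold, Fosb 3.20-fold and Zfp36 2.90-fold lower. Slc7a11, the cystine transporter, was 8.60-fold lower, Chac1 6.79-fold lower and Dnajb11, an ER partner of BiP, 2.09-fold lower. The remaining lists had 0 of 3 heat shock factors, 2 of 14 chaperonin and prefoldin genes (both higher) and 0 of 8 mitochondrial genes past 2-fold.

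In pTSCs against TSCs, where 17.6% of all genes were higher and 13.9% lower, the other cytosolic chaperones had 1 of 24 higher and 3 lower (median -0.26), among them Stub1, the ubiquitin ligase that works with HSP70, at 2.98-fold lower. The chaperonin list had 1 of 14 lower, Pfdn6. The ER list had 2 of 24 higher, with Sel1l at 2.07-fold. The NRF2 list had 2 of 10 higher, Slc7a11 (3.22-fold) and Prdx1 (2.29-fold), and 1 lower, Nfe2l2 (at 160 against 320 CPM). The immediate early list had 2 of 11 higher and 1 lower, with Junb 2.45-fold higher and Fosb 2.61-fold lower. No gene of the heat shock factor (0 of 3), mitochondrial (0 of 8) or integrated stress response (0 of 6) lists passed 2-fold.

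**Figure D4:**
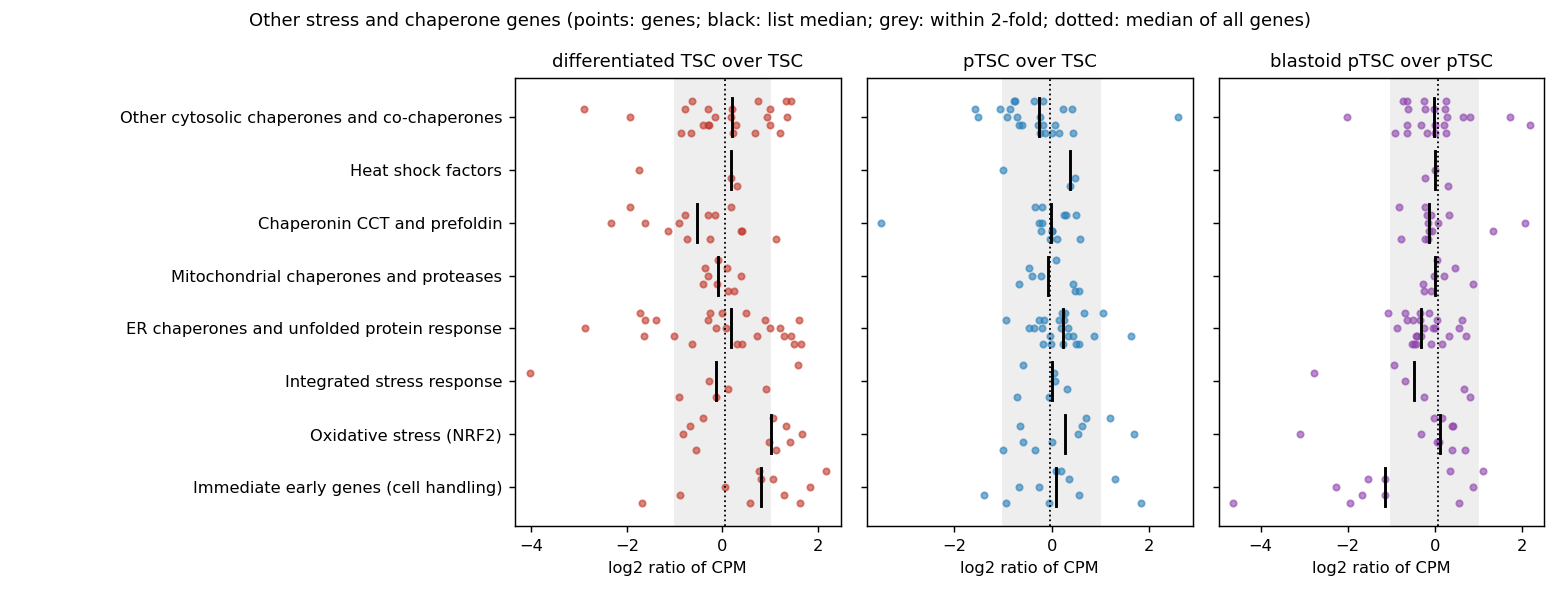
Log2 ratio of CPM of every measured gene in the 8 chaperone and stress lists (points), with each list's median as a black bar, in the 3 comparisons of single-cell libraries; a gene with 0 UMIs in 1 library is placed as if it had 3. The NRF2 list has its median at 1.01 in differentiated TSCs over TSCs, and the immediate early list has its median at -1.15 in blastoid pTSCs over pTSCs.

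CDX2-high and CDX2-low TSCs were the comparison with replicates. The tagged gene followed the labels, with 786 ± 51.3 CPM of Cdx2-eGFP in CDX2-high and 65.7 ± 33.2 CPM in CDX2-low libraries (SD, n = 3 each; log2 fold change 3.53). Of the 10 members, 7 had enough counts to be tested. Cryab, Hspa1a and Hspa1b had 7, 7 and 9 counts over the 6 libraries and were not tested. In the quasi-likelihood fit of edgeR, with p-values adjusted after Benjamini-Hochberg over 3006 genes, 0 of the 7 passed 0.05, beside 5.89% of all genes tested. At an unadjusted p under 0.05 there was 1, and DESeq2 likewise gave 0 after adjustment and 1 before.

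That gene was Hspa5. It was at 254, 253 and 184 CPM in the CDX2-high libraries, against 377, 381 and 289 CPM in the CDX2-low libraries. Its groups did not overlap, with means of 230 ± 40.1 CPM in CDX2-high and 349 ± 52.2 CPM in CDX2-low (SD, n = 3 each). The log2 fold change was -0.62 (SE 0.23) with an adjusted p of 0.127 by edgeR and 0.327 by DESeq2, and between 0.0823 and 0.460 over all alternatives run.

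Hsp90aa1 was at 2088, 1894 and 2077 CPM in CDX2-high libraries, against 1843, 1626 and 1630 CPM in CDX2-low libraries. These groups did not overlap either, and the log2 fold change of 0.24 (SE 0.16) had an adjusted p of 0.471 by edgeR and 0.703 by DESeq2. Groups that do not overlap were found for 2 of the 7 members and for 22.7% of all genes tested. Hspa8 was at 5940, 5055 and 5283 CPM in CDX2-high libraries and 3815, 5555 and 4023 CPM in CDX2-low libraries, a log2 fold change of 0.27 (SE 0.16). The other 4, Hspb1, Hsp90ab1, Dnajb1 and Hsph1, overlapped between groups with log2 fold changes between -0.36 and 0.12. Hsp90ab1 averaged 4804 ± 872 CPM in CDX2-high and 4394 ± 1005 CPM in CDX2-low libraries, and its 95% interval of the log2 fold change ran between -0.22 and 0.45. Hspb1 averaged 439 ± 101 CPM in CDX2-high and 480 ± 147 CPM in CDX2-low libraries. Both differences were smaller than the SD of either group.

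**Figure D5:**
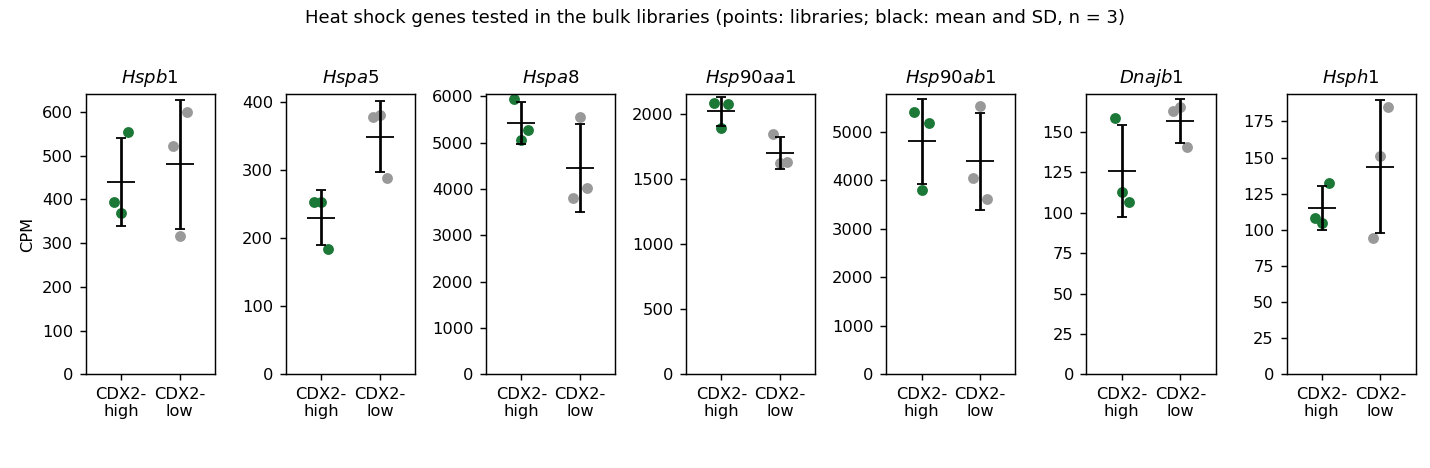
CPM of the 7 heat shock genes tested in the bulk libraries, with 1 point per library and the mean and SD in black (n = 3 per group), CDX2-high on the left and CDX2-low on the right of each panel. The groups separate for Hspa5 (230 ± 40.1 against 349 ± 52.2 CPM) and Hsp90aa1, and neither passed the adjusted threshold.

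Among the listed partners, 7 genes passed in the bulk comparison and all 7 fell in CDX2-high cells, while of the 177 genes that passed in all 93 rose and 84 fell. Of 9 tested trophoblast stem cell markers 3 passed and fell with them, Krt8 by 1.83 on the log2 scale, Id2 by 1.14 and Krt18 by 0.89 (adjusted p 7.05e-06, 0.00392 and 0.0105 by edgeR). The list as a whole did not fall. Its median log2 fold change over the 9 was 0.34, toward CDX2-high, against -0.01 over all genes tested. Hspb8 was at 76.1, 70.0 and 51.5 CPM in CDX2-high libraries and 120, 259 and 111 CPM in CDX2-low libraries, a log2 fold change of -1.36 (adjusted p 0.0218 by edgeR and 0.0772 by DESeq2). Serpinh1, the collagen chaperone HSP47, fell by 0.91 on the log2 scale (adjusted p 0.0427 by edgeR, 0.187 by DESeq2). These were 2 of 18 tested cytosolic chaperones. In the ER list 1 of 9 passed, P4hb, protein disulfide isomerase, which fell by 0.70 (adjusted p 0.0320 by edgeR, 0.0472 by DESeq2). In the integrated stress response list 2 of 4 passed, Trib3, which fell by 1.15 (adjusted p 0.0110 by edgeR, 0.0389 by DESeq2), and Ddit4, which fell by 0.98 (adjusted p 0.0278 by edgeR, 0.112 by DESeq2). In the immediate early list 2 of 9 passed, and Jun fell by 2.45 (63.5, 89.4 and 80.9 CPM in CDX2-high, against 514, 338 and 459 CPM in CDX2-low; adjusted p 1.35e-06 by edgeR) and Fos by 0.88 (adjusted p 0.0284 by edgeR, 0.0646 by DESeq2). None (0) of the 12 chaperonin, 7 mitochondrial, 6 NRF2 and 1 heat shock factor genes tested passed. The part of cell handling or of these markers in the Hspb8 and Hspa5 values was not tested.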

How the data were processed

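Per the labels' protocols, cells were sorted into 384-well plates and processed by CEL-Seq2, and reads were aligned with STAR 2.5.3a, per the submitters' processing notes. The sources used here name neither the counting program nor a genome build or UMI correction. The deposited bulk table holds raw counts per gene and library. The deposited single-cell tables hold whole numbers per gene and well, treated as estimated counts that the authors may have corrected for UMI collisions. Bulk counts were tested with edgeR 4.0.16 (filterByExpr, TMM, quasi-likelihood) in R 4.3.3, with DESeq2 1.42.0 as an alternative, after a check on simulated data. Bulk CPM values were computed from each library's total count.

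Kept wells (2000 or more non-mitochondrial UMIs) were summed per library and scaled to CPM. No doublets were removed. A gene counted as higher or lower at 2-fold or more with at least 10 UMIs over both libraries. With 1 library per group no test was made, and ratios carry exact conditional binomial intervals (95%). Correlations used the log of 1 plus counts per 10000. The comparisons of differentiated TSCs and of pTSCs with TSCs share the TSC library, and the pTSC library also serves in the blastoid comparison.

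The members and lists were chosen with earlier results of these data known. All members are named. Each list gives up to 4 genes per comparison with the largest change among those that passed in bulk, or were 2-fold apart with at least 50 UMIs. The 5 genes of highest r are named for Cryab and Hspa1b in each library where they had a UMI in at least 10% of wells, apart from genes that are not reported here. Hsf1, the Bag3 and Egr1 levels in blastoid or differentiated cells, and the marker genes set beside Cryab and Hspa1b were chosen after their values were seen. Alternatives covered the well threshold, possible doublets, scaling, either part of a plate, wells highest in a gene, thinning, the test and the filter in bulk, and leaving out each bulk library.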

Additional observations from a re-analysis of the deposited data

How the results depend on the processing

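No paired analysis was possible because the bulk groups share no replicate numbers and each single-cell group is 1 library. In bulk, 0 members passed under every alternative run, while the number of all genes passing was 177 in the fit reported, 88 with DESeq2, 104 with every library thinned to the smallest total, and between 81 and 189 when a library was left out (95 without CDX2-high replicate 37, 102 without 38 and 81 without 39). Hspb1 changed sign in bulk, at 0.02 without CDX2-high replicate 38 and 0.10 without CDX2-low replicate 42, and ranged between -0.35 and 0.10 when a library was left out.

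For differentiated TSCs against TSCs, the number of higher members was 3 with the lower-numbered well barcodes and 4 under all other alternatives run. Against pTSCs the 4 were not the same genes, with Dnajb1 (log2 ratio 1.33) in place of Hspa1a (0.75). The 2 lower members became 1 without the 5% of wells with the most UMIs, with the mean of single-well CPM, without the wells highest in the gene (Hsph1 then had no UMI left in differentiated TSCs), and against pTSCs, and 0 with the lower-numbered well barcodes. For pTSCs against TSCs, the higher members became 1 with the mean of single-well CPM and with the higher-numbered well barcodes, and the lower ones 2 with that mean, with the lower-numbered ones and without the wells highest in the gene. For blastoid pTSCs against pTSCs, the higher members became 2 under those last 3 settings, but not the same 2 genes. Hspa1b and Cryab passed with the mean (log2 ratios 1.36 and 1.19) and with the lower-numbered well barcodes (1.315 and 1.12). Without the wells highest in the gene, Cryab (3.29) and Hspa1a (3.21) passed and Hspa1b (0.98) did not. Only 17 pTSC wells held a Cryab UMI and 16 an Hspa1a UMI before those wells were left out. The lower members became 0 under that setting, since Hspa5 and Hspa8 then had no value. The cause was not tested elsewhere. Without thinning, members with a UMI in at least 10% of wells were 8 rather than 5 in differentiated TSCs, 7 rather than 3 in pTSCs and 9 rather than 2 in TSCs. With thinning, pairs with r of at least 0.2 in differentiated TSCs were 0 rather than 4. Of the single-gene values, 311 stayed within their spread or on their side of the threshold, 73 moved and 2 reversed. Few UMIs limit Hspa5, Hspa8, Hsph1 and Hspa1a most.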
